A study of Sus scrofa with 11 samples.

Results

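The nuclear genes for subunits of the oxidative phosphorylation complexes were examined in carotid artery of pigs (Sus scrofa) by poly-A selected RNA sequencing. Members were the rows of the deposited count table that were not on mitochondrial DNA and whose gene name begins NDUF followed by A, B, C, S or V and a digit, is SDHA, SDHB, SDHC or SDHD, or begins UQCR, COX with a digit from 4 to 8, or ATP5. Of 35670 rows in the table, 70 matched these names, no name was repeated, and 66 had at least 10 counts in at least 2 libraries. These 66 members comprised 30 of complex I, 3 of complex II, 7 of complex III, 14 of complex IV and 12 of complex V. NDUFA4 and NDUFA4L2, named for complex I, were counted with complex IV, where NDUFA4 is now placed.

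Oxidative phosphorylation takes place in the inner mitochondrial membrane. Complexes I and II take electrons from NADH and succinate, complexes III and IV pass them to oxygen, and complexes I, III and IV pump protons whose return through complex V, the ATP synthase, drives the making of ATP. Mitochondrial DNA encodes a small part of complexes I, III, IV and V, and the nucleus encodes the rest of these and all of complex II. Arterial smooth muscle, the main cell of the carotid wall, draws on both glycolysis and oxidative phosphorylation.

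All animals were pigs fed a fat-rich, energy-dense Western diet for 12 weeks, and each week all were anaesthetised and infused intravenously with nanotubes at 400 nM. One group received single-walled carbon nanotubes without the drug (SWNT), and the other received nanotubes loaded with a small-molecule SHP-1 phosphatase blocker (SWNT-SHP1i), a treatment aimed at macrophages of the diseased artery. The labels give no strain, age or sex for either group, no animals without nanotubes, and no gene edits. Counts covered 5 SWNT animals (replicates 1 to 5) and 5 SWNT-SHP1i animals (replicates 1, 2, 3, 5 and 6). Replicate 4 of SWNT-SHP1i was labelled as dead before harvest and was not analysed here. Values by library are given below in this order of replicates.

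Total counts ranged from 27593564 to 47718854 per library, lowest in SWNT-SHP1i replicate 6. The smooth muscle genes that define the tissue were abundant in every library (summed level of 10 markers 40351 to 60028 CPM, counts scaled by library size, in SWNT and 19017 to 49570 CPM in SWNT-SHP1i). Replicates 3 and 6 of SWNT-SHP1i stood apart. Replicate 6 was the highest of the 10 libraries in 29.4% of the 15930 genes tested and the lowest in 30.5%. Replicate 3 had 8.53% of its counts in the 13 mitochondrially encoded subunits, against 1.15% to 2.95% in the other 9 libraries. Replicate 3 of each group is an animal whose number lies outside the range of the others, and nothing in the labels says what that range means. The main results are therefore also given without SWNT-SHP1i replicate 6 and without both replicates 3 and 6.

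No nuclear subunit passed the test for a difference between SWNT-SHP1i and SWNT carotid artery. Of 66 members, 0 passed an adjusted p of 0.05 in edgeR's quasi-likelihood test, as did 0% of the 15930 genes tested. No member had an unadjusted p under 0.05, which 4.64% of all genes tested had. The 2 groups overlapped in all 66 members, and 0.358% of all genes had groups that did not overlap. Among all genes, 739 had an unadjusted p under 0.05 and DESeq2 called 2, neither of them a member, while limma-voom called 0. Adjusted p for the members began at 0.997. Most fitted changes were small: the log2 fold changes (SWNT-SHP1i over SWNT) ran from -0.30 for NDUFS4 to 0.91 for NDUFA4L2.

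A larger part of the members than of all genes had positive fold changes, and this turned with the libraries used. With all 10 libraries 47 members were positive and 19 negative, or 71.2% positive against 50.8% of all genes tested, and the members' median log2 fold change was 0.10 against 0.01 for all genes. With other scalings of the libraries, 53 (RLE) and 45 (upper quartile) members were positive. The median was 0.12 in complex I, 0.05 in complex II, 0.03 in complex III, 0.02 in complex IV and 0.14 in complex V. Without SWNT-SHP1i replicate 6, 20 of 66 were positive (48.3% of all genes) and the median was -0.10. Without replicates 3 and 6, 6 of 66 were positive (51.2% of all genes) and the median was -0.18. The median over all genes was -0.01 and 0.01 in these fits. The limma-voom fit, which gives less weight to libraries that stand apart, had a median of -0.08 over the members with all 10 libraries.

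**Figure D1:**
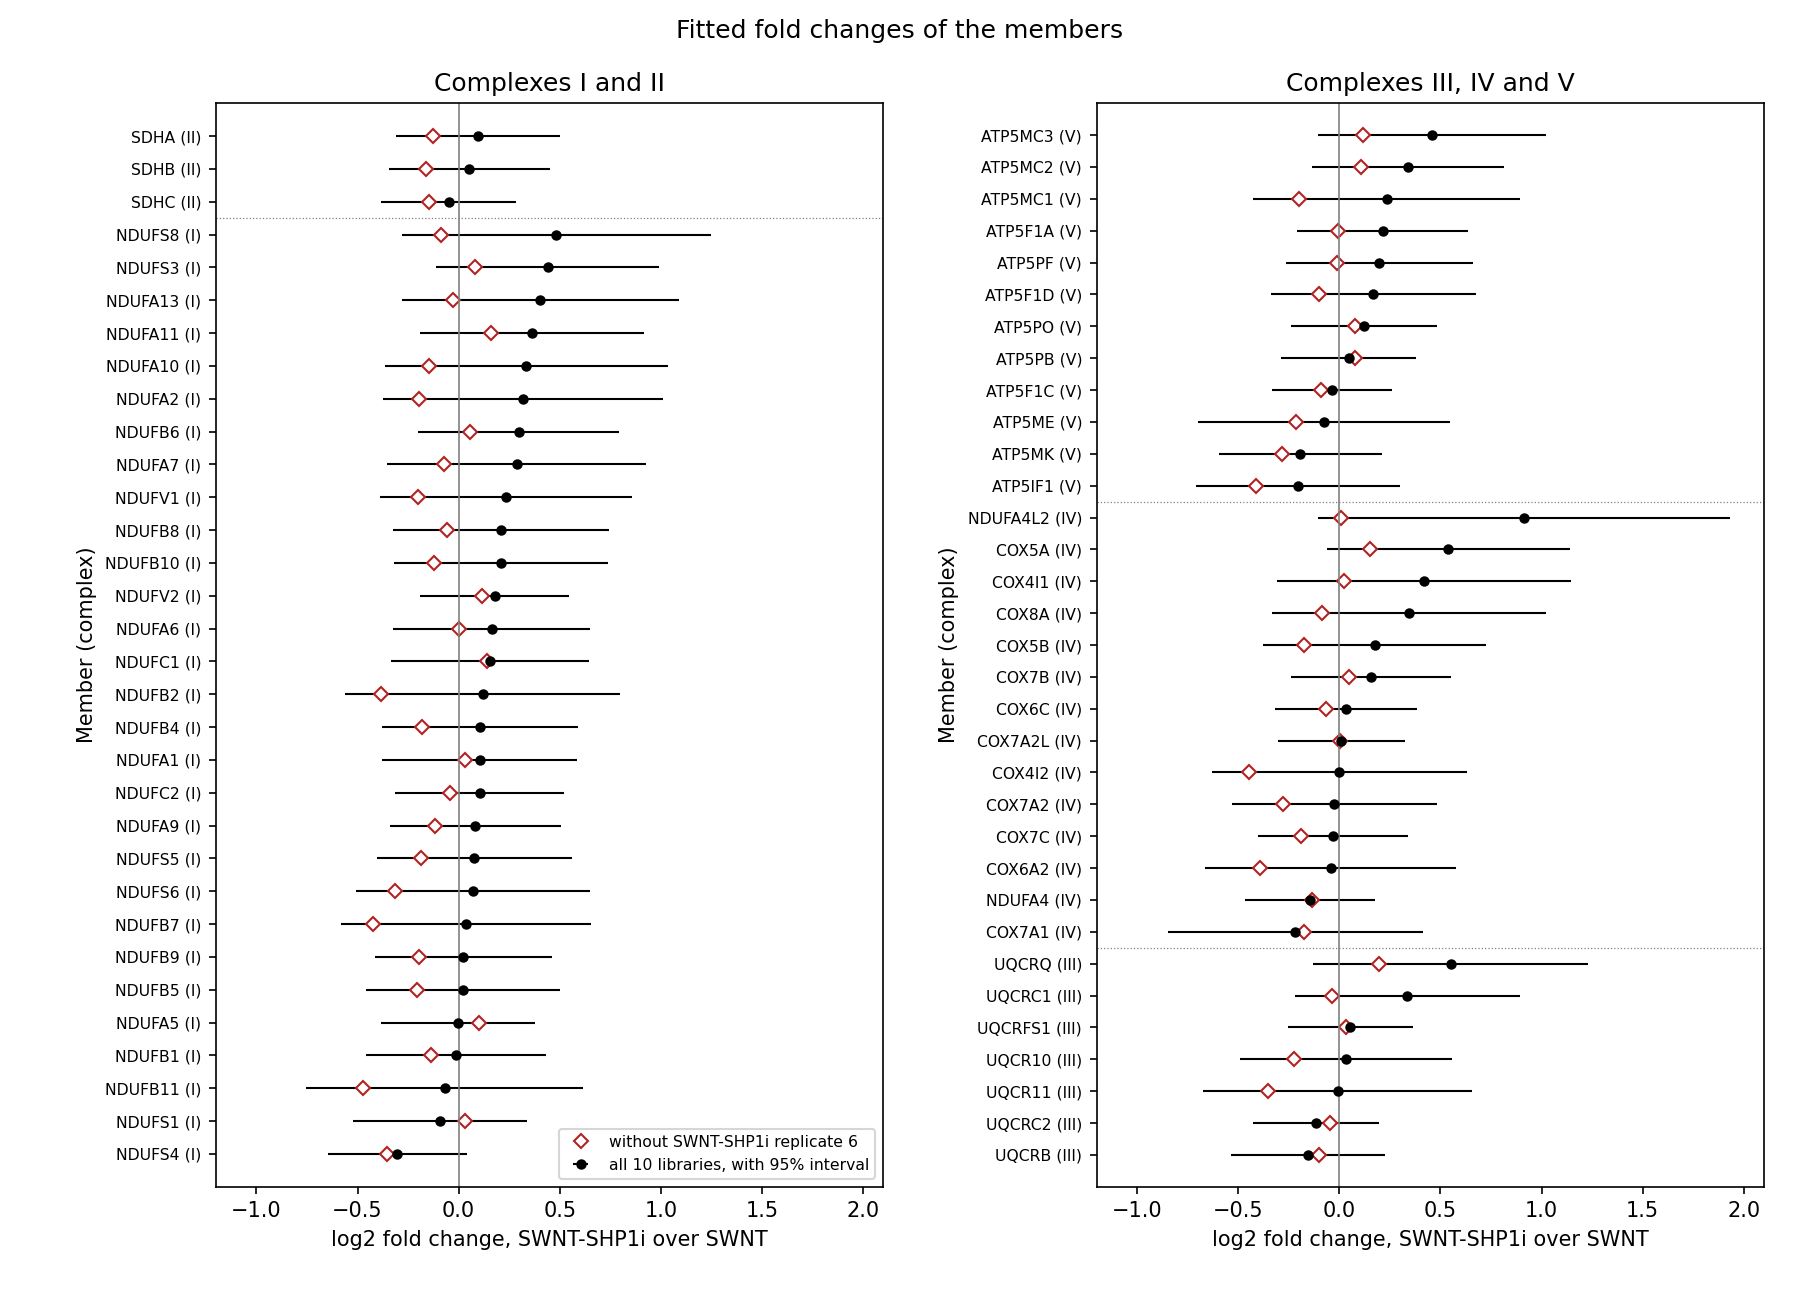
Log2 fold change of each of 65 members (x axis, SWNT-SHP1i over SWNT), by complex; filled points with bars are the fit to all 10 libraries with its 95% interval, and open diamonds the fit without SWNT-SHP1i replicate 6. Of the filled points 46 lie above 0, while 20 of the diamonds do.

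In SWNT-SHP1i replicate 6 the nuclear subunits were high across all 5 complexes. It was the highest of the 10 libraries in 49 of 66 members (29.4% of all genes): 24 of 30 in complex I, 3 of 3 in complex II, 4 of 7 in complex III, 11 of 14 in complex IV and 7 of 12 in complex V. Its members held 0.515% of all counts, against 0.268% to 0.395% in the other 9 libraries (Wilson 95% intervals at most 0.00534 percentage points wide, covering counting error only). Relative to the mean of the other 9 libraries on the log2 CPM scale, 59 members were above it, and 25 of 66 (37.9%) were more than 2-fold above it, as were 22.3% of all genes. The members with the highest departures, chosen after their values were seen, were NDUFA4L2 at 5.49-fold and NDUFS8, an iron-sulphur subunit of complex I, at 3.40-fold. NDUFS8 read 46.6, 61.2, 75.9, 57.6 and 43.3 CPM in SWNT and 47.0, 59.7, 72.1, 35.9 and 184 CPM in SWNT-SHP1i.

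The 7 members below the mean of the other 9 in replicate 6 were NDUFS1 and NDUFA5 of complex I, UQCRC2 and UQCRB of complex III, COX7A1 and NDUFA4 of complex IV and ATP5PB of complex V. Subunits of one complex therefore departed in opposite directions in the same library, from 0.60-fold for NDUFS1 to 3.40-fold for NDUFS8 within complex I. The genes of the 25 members more than 2-fold above had a median genomic span of 5.73 kb, and those of the 7 members below had one of 11.8 kb. Over all genes tested the same medians were 11.4 kb and 34.8 kb. Across the 66 members the departure had r = -0.31 with the log2 span of the gene and r = -0.24 with its log2 exon length, and over all 15930 genes tested these were -0.21 and -0.20. All points of these correlations come from the same 10 libraries.

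SWNT-SHP1i replicate 5 was the other end of the range. It was the lowest of the 10 libraries in 34 of 66 members, against 10.5% of all genes. Replicate 3 of SWNT-SHP1i was the highest in 9 members and replicate 1 the lowest in 17. The range within SWNT-SHP1i was thus wide, with a median SD of 0.49 over the members on the log2 CPM scale (0.29 without replicate 6), against 0.21 in SWNT.

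**Figure D2:**
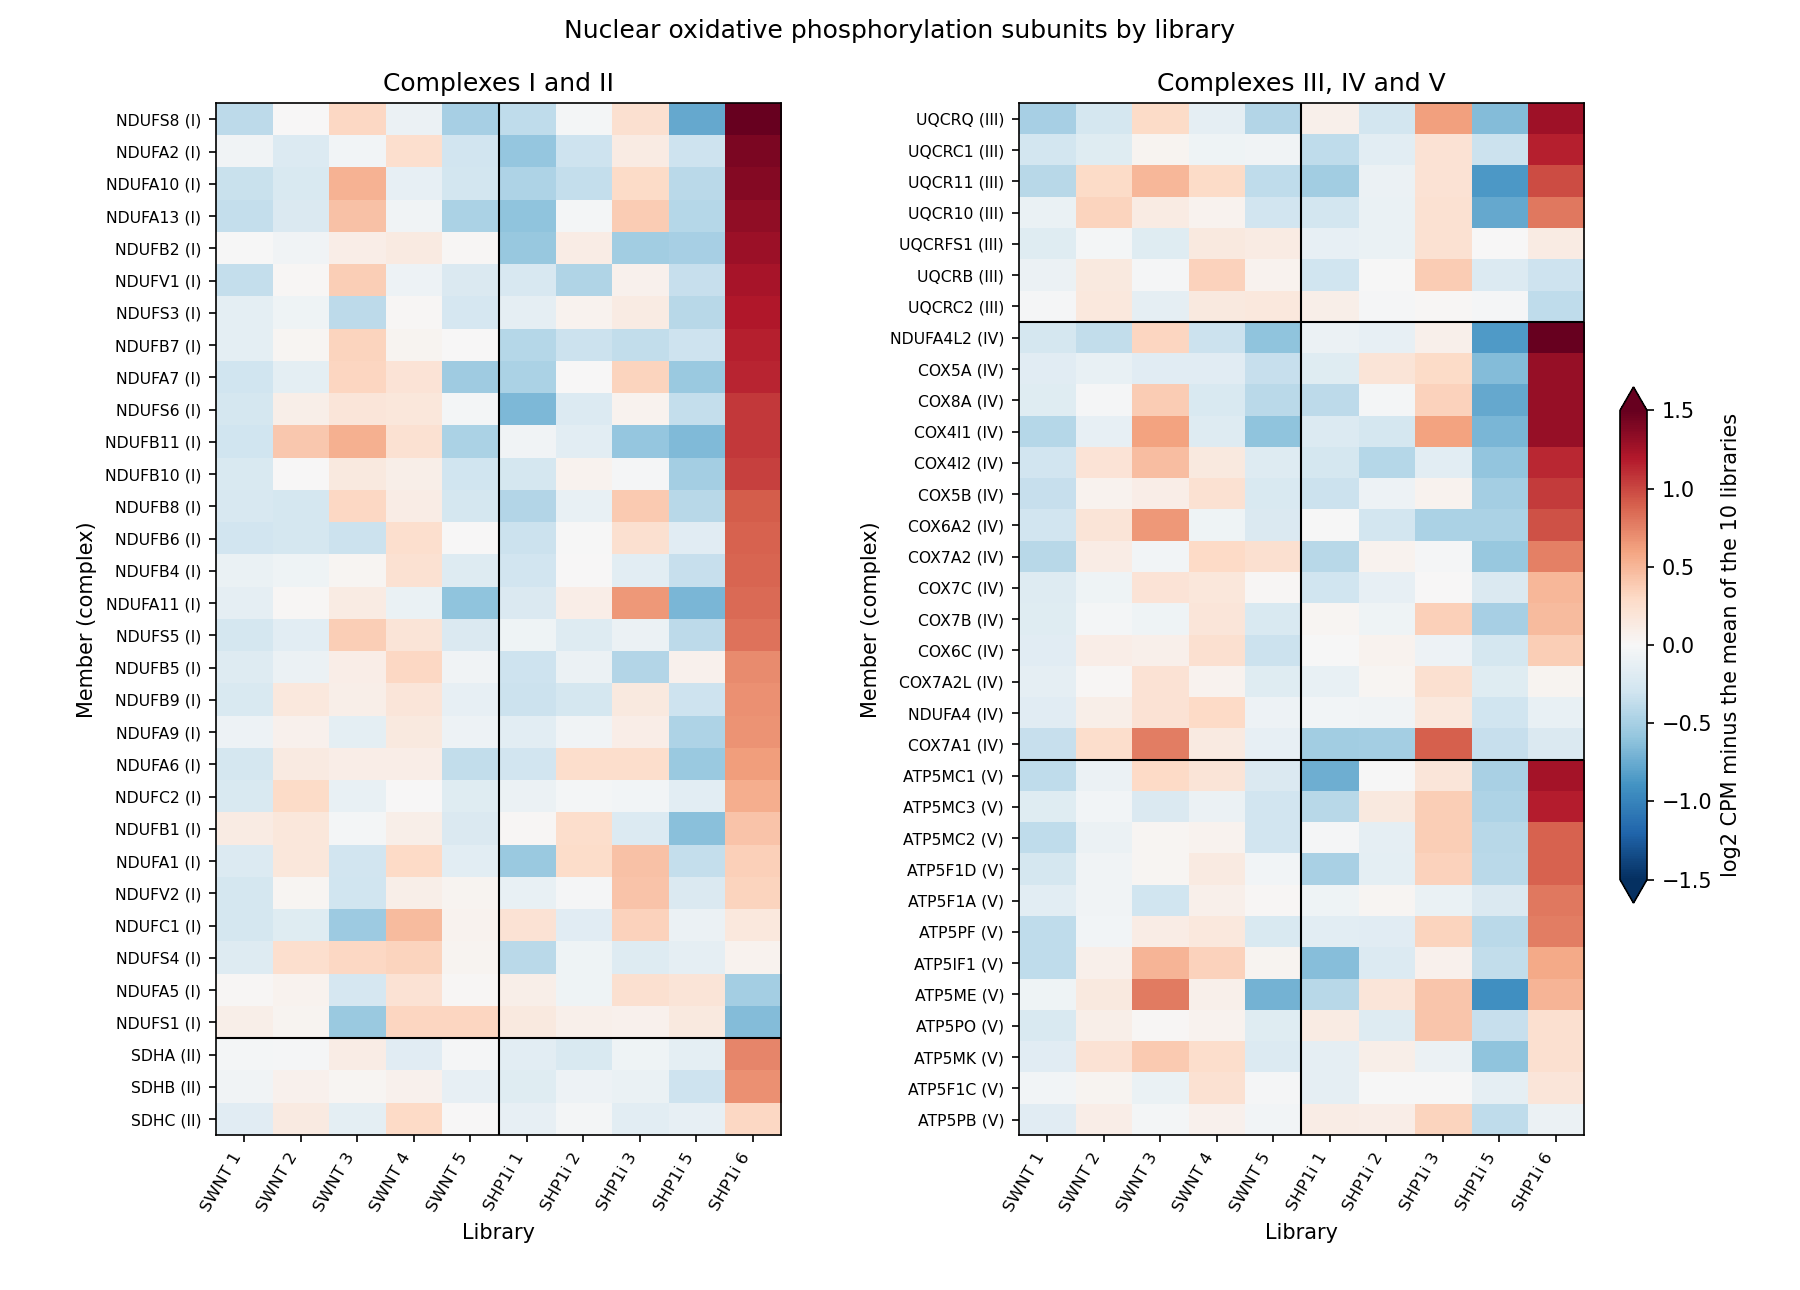
Level of each of 65 members (rows, complex in brackets) in each library (columns; the vertical line parts SWNT from SWNT-SHP1i), as log2 CPM minus the member's mean over the 10 libraries; within a complex, rows are ordered by the value in SWNT-SHP1i replicate 6. The column of replicate 6 is the highest in 48 of 65 rows and the column of replicate 5 the lowest in 33.

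**Figure D3:**
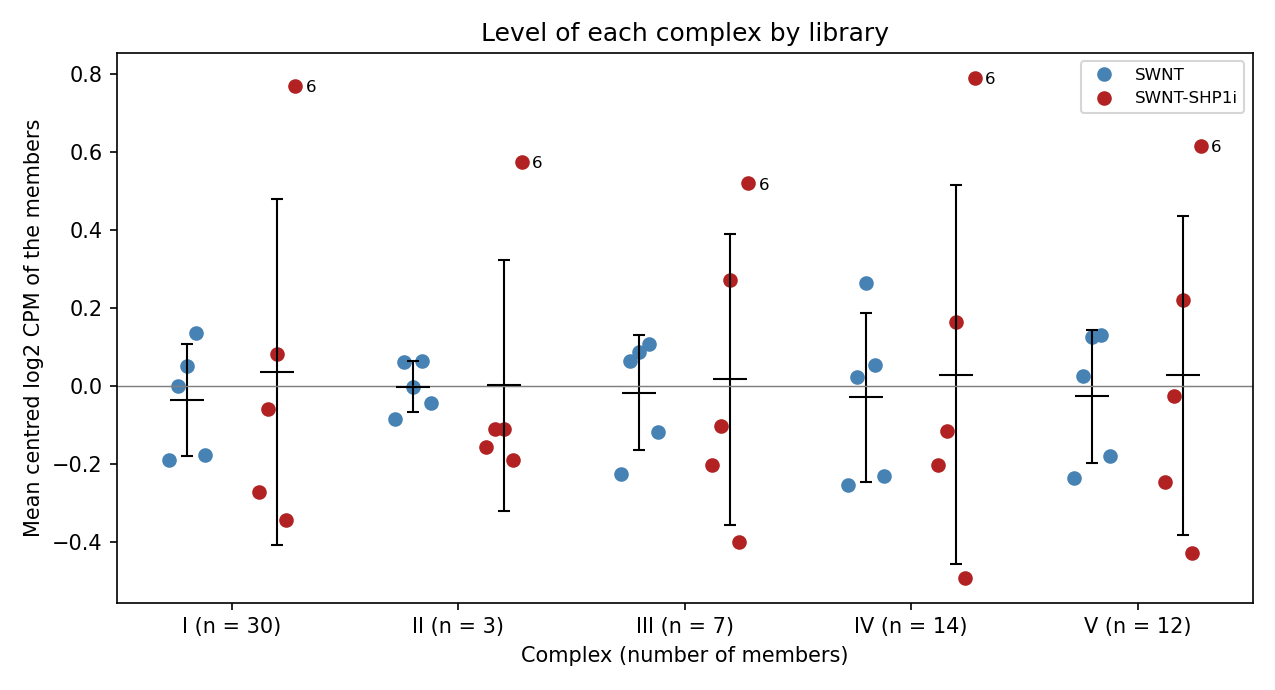
Mean centred log2 CPM of the members of each complex (y axis) in each library, with the mean and SD of each group of 5 as bars. SWNT-SHP1i replicate 6, marked 6, is the highest library in every complex, from 0.52 in complex III to 0.79 in complex IV.

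In complex I, which oxidises NADH, 25 of 30 members had positive fold changes and 0 passed the test. NDUFS5, a small accessory subunit, had the highest level per exon length (87.2 RPKM, which is CPM per kilobase of exon) and NDUFA5 the lowest (2.24 RPKM). The members of this complex thus spanned 39.0-fold in RPKM. This measure depends on the annotated exon length, which was 624 bases for NDUFS5 and 10832 bases for NDUFA5. In CPM, NDUFA5 (16.8 to 28.4) was above NDUFC1 (6.05 to 12.3). Without SWNT-SHP1i replicate 6, 9 of the 30 were positive and the median was -0.10.

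The core subunits of complex I carry its redox centres. NDUFV1, which binds the flavin that accepts electrons from NADH (chr2:4958522-4964216), read 53.3, 68.8, 87.9, 64.9 and 58.9 CPM in SWNT and 57.5, 49.8, 71.5, 53.7 and 161 CPM in SWNT-SHP1i. Its SWNT-SHP1i libraries other than replicate 6 lay within or just below the SWNT range, and its log2 fold change of 0.24 ± 0.32 (SE) became -0.20 ± 0.17 without replicate 6. NDUFS1, the largest iron-sulphur subunit (chr15:109409771-109451676), read 43.4, 42.2, 27.9, 51.3 and 51.2 CPM in SWNT and 45.5, 43.3, 42.7, 45.2 and 26.0 CPM in SWNT-SHP1i. It went the other way from NDUFV1 in replicate 6, where it had its lowest value of all 10 libraries, and its log2 fold change was -0.09 ± 0.22.

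NDUFS4, an accessory subunit at the NADH-oxidising arm whose loss causes complex I deficiency (chr16:32874450-32987828), had the smallest p in the complex and the lowest log2 fold change of all members, -0.30 ± 0.17 (95% interval -0.64 to 0.04, unadjusted p = 0.107). It read 28.9, 39.3, 40.9, 41.5 and 34.0 CPM in SWNT and 25.0, 31.5, 29.0, 30.1 and 34.2 CPM in SWNT-SHP1i. Of the 5 SWNT-SHP1i libraries 4 lay below the second lowest SWNT library, and SWNT replicate 1 lay among them. Here replicate 6 did not carry the value, which was -0.35 ± 0.15 without it (unadjusted p = 0.0354) and -0.35 without replicates 3 and 6 (unadjusted p = 0.0566).

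NDUFS3, a core subunit near the quinone site (chr2:15031149-15036880), had a log2 fold change of 0.44 ± 0.28 that was 0.08 ± 0.15 without replicate 6. It read 24.6 to 32.7 CPM in SWNT, 24.3 to 35.1 CPM in SWNT-SHP1i replicates 1, 2, 3 and 5, and 74.1 CPM in replicate 6. NDUFA11, an accessory membrane subunit, ranged from 20.4 to 33.6 CPM in SWNT and read 26.5, 32.9, 48.2, 19.2 and 55.7 CPM in SWNT-SHP1i, so replicates 3 and 6 were both above SWNT. Its log2 fold change was 0.36 ± 0.28 with all libraries, 0.16 without replicate 6 and -0.11 without both. Among the members of lowest RPKM, the log2 fold change of NDUFA5 was -0.0030 ± 0.20, of NDUFB2 0.12 ± 0.35 (-0.38 without replicate 6) and of NDUFC2 0.10 ± 0.21. Exons of NDUFC2 overlap those of THRSP on the other strand over 89.4% of their length, so its counts may include reads of that gene.

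Complex II links the tricarboxylic acid cycle to the chain by oxidising succinate, and is the one complex with no mitochondrially encoded subunit. Its 3 members were the most even within groups, with a median SD of 0.10 in SWNT on the log2 CPM scale. SDHA, the flavoprotein that holds the succinate site (chr16:79834044-79862524), read 114, 115, 125, 104 and 115 CPM in SWNT and 104, 99.2, 111, 105 and 193 CPM in SWNT-SHP1i. SDHB, the iron-sulphur subunit (chr6:75648215-75678378), read 57.1, 61.8, 60.6, 61.9 and 54.6 CPM in SWNT and 52.1, 56.5, 55.4, 47.9 and 95.2 CPM in SWNT-SHP1i. In both genes SWNT-SHP1i replicate 6 lay above all others, and the remaining 4 SWNT-SHP1i libraries lay in the lower part of the SWNT range or below it. Their log2 fold changes were 0.10 ± 0.21 and 0.05 ± 0.20, and without replicate 6 they were -0.13 ± 0.11 and -0.16 ± 0.11. SDHC, a membrane anchor, ranged from 45.6 to 62.9 CPM in SWNT and from 45.9 to 63.8 CPM in SWNT-SHP1i (log2 fold change -0.05 ± 0.17).

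Complex III passes electrons from quinol to cytochrome c. Of its 7 members 4 had positive fold changes, 0 passed the test, and the 2 large core proteins differed in direction in SWNT-SHP1i replicate 6. UQCRC1 (chr13:31298449-31309516) read 76.4, 81.5, 95.3, 88.1 and 89.1 CPM in SWNT and 71.2, 83.1, 107, 73.8 and 208 CPM in SWNT-SHP1i. UQCRC2 (chr3:24197747-24228832) read 47.7, 53.8, 43.9, 53.6 and 54.2 CPM in SWNT and 51.5, 47.9, 49.2, 47.9 and 37.1 CPM in SWNT-SHP1i. Replicate 6 was the highest library for UQCRC1 and the lowest for UQCRC2, with log2 fold changes of 0.34 ± 0.28 and -0.12 ± 0.16, which were -0.04 and -0.05 without that library.

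UQCRFS1, the Rieske iron-sulphur protein at the catalytic centre, ranged from 44.8 to 56.4 CPM in SWNT and from 46.9 to 59.7 CPM in SWNT-SHP1i, and its log2 fold change was 0.05 ± 0.16. UQCRQ, a small subunit next to cytochrome b (chr2:135186501-135188293), had the second highest log2 fold change of all members, 0.55 ± 0.35 (95% interval -0.13 to 1.23, unadjusted p = 0.138). It read 8.81, 10.4, 15.2, 11.3 and 9.13 CPM in SWNT and 13.1, 10.2, 19.0, 7.88 and 29.9 CPM in SWNT-SHP1i. Replicates 3 and 6 were above every SWNT library and replicate 5 below every one, and the value was 0.20 without replicate 6 and -0.07 without both. Exons of UQCRQ overlap those of GDF9 on the other strand over 27.1% of their length. UQCRB, which helps form the quinone pocket, ranged from 24.9 to 33.6 CPM in SWNT and from 21.4 to 34.5 CPM in SWNT-SHP1i (log2 fold change -0.16 ± 0.19).

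Complex IV, cytochrome c oxidase, hands the electrons to oxygen. It held both the highest and one of the lower levels per exon length, COX4I1 at 230 RPKM and NDUFA4L2 at 4.83 RPKM, and of its 14 members 8 had positive fold changes and 0 passed the test. COX5A (chr7:58622964-58644021), a matrix-side subunit, had the smallest p of all members with a log2 fold change of 0.54 ± 0.31 (95% interval -0.06 to 1.14, unadjusted p = 0.103). It read 32.4, 33.8, 32.3, 32.3 and 28.7 CPM in SWNT and 32.2, 41.6, 44.6, 23.3 and 90.1 CPM in SWNT-SHP1i. Replicates 2, 3 and 6 of SWNT-SHP1i were above the SWNT range and replicate 5 was below it. Without replicate 6 the value was 0.15 ± 0.18. COX5B, a zinc-binding subunit, ranged from 52.8 to 78.9 CPM in SWNT and from 47.3 to 139 CPM in SWNT-SHP1i, for a log2 fold change of 0.17 ± 0.28 that was -0.17 without replicate 6.

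COX8A and COX7B are small membrane subunits of the enzyme. COX8A had the second highest level per exon length of all members (186 RPKM) and a log2 fold change of 0.35 ± 0.35, which was -0.09 without replicate 6. COX7B had a log2 fold change of 0.16 ± 0.20. COX7A2L, which helps join complexes III and IV into supercomplexes, had a log2 fold change of 0.01 ± 0.16 and stood between 69.7 and 91.8 CPM in SWNT and between 69.6 and 93.0 CPM in SWNT-SHP1i. Its 95% interval ran from -0.30 to 0.32.

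Several subunits of complex IV exist in more than one gene copy, used in different tissues or oxygen conditions. COX4I1 is the general form of a regulatory subunit and COX4I2 the form known from lung, vessel pericytes and oxygen-sensing cells. COX4I1 (chr6:3131019-3137530) read 142, 176, 289, 166 and 126 CPM in SWNT and 166, 159, 290, 119 and 471 CPM in SWNT-SHP1i. COX4I2 (chr17:35341889-35346090) read 37.9, 53.1, 63.6, 51.2 and 40.5 CPM in SWNT and 38.4, 34.4, 41.3, 30.6 and 102 CPM in SWNT-SHP1i. COX4I1 was high in replicate 3 of both groups and in SWNT-SHP1i replicate 6, and COX4I2 was high in SWNT-SHP1i replicate 6 but in the lower part of the SWNT range or below it in the other 4 SWNT-SHP1i libraries. Their log2 fold changes were 0.42 ± 0.37 and -0.0010 ± 0.32, and without replicate 6 they were 0.025 ± 0.29 and -0.45 ± 0.17.

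The log2 ratio of COX4I2 to COX4I1 counts within a library, which does not depend on how libraries are scaled, was -1.83 ± 0.22 (SD, n = 5) in SWNT and -2.26 ± 0.33 (SD, n = 5) in SWNT-SHP1i. It was -1.91, -1.73, -2.19, -1.70 and -1.64 in SWNT and -2.11, -2.21, -2.81, -1.95 and -2.21 in SWNT-SHP1i. SWNT replicate 3 was the only SWNT library among the SWNT-SHP1i values, and SWNT-SHP1i replicate 6, high in both genes, did not stand apart in their ratio. The difference of -0.43 had p = 0.0317 in a two-sided exact permutation test and an adjusted p = 0.159 over the 5 isoform pairs examined, so it did not pass. The smallest p this test can give with 5 libraries against 5 is 0.00794. Without SWNT-SHP1i replicate 3 the difference was -0.29 (exact p = 0.0635), without replicate 6 it was -0.44 (exact p = 0.0476), and without both it was -0.26 (exact p = 0.143). Among the 8 animals with similar numbers, which leaves out replicate 3 of each group, it was -0.38, with an exact p = 0.0286, the smallest that 4 libraries against 4 can give. The p-values with libraries left out are unadjusted, and adjusted over the 5 pairs these 4 were between 0.143 and 0.446 in the exact permutation test.

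NDUFA4 is a subunit of complex IV, and NDUFA4L2 its counterpart, known as a hypoxia-induced gene and as a marker of pericytes. NDUFA4L2 (chr5:22535740-22548882) had the highest log2 fold change of all members, 0.91 ± 0.52 (95% interval -0.11 to 1.93, unadjusted p = 0.104), which was 0.01 ± 0.28 without replicate 6. It read 6.47, 5.99, 9.69, 6.17 and 5.09 CPM in SWNT and 7.29, 7.14, 8.15, 4.32 and 36.1 CPM in SWNT-SHP1i, so only replicate 6 lay above SWNT. Exons of NDUFA4L2 overlap those of SHMT2 on the other strand over 11.9% of their length. NDUFA4 (chr9:80636929-80644315) ranged from 58.0 to 79.6 CPM in SWNT and from 52.8 to 72.3 CPM in SWNT-SHP1i, for a log2 fold change of -0.15 ± 0.16. The log2 ratio of NDUFA4L2 to NDUFA4 was -3.38 ± 0.31 (SD, n = 5) in SWNT and -2.75 ± 1.15 (SD, n = 5) in SWNT-SHP1i, where replicate 6 was at -0.73 and the other 4 libraries were between -3.61 and -3.11. The difference of 0.64 was smaller than the SD in SWNT-SHP1i (exact permutation p = 0.286, adjusted p = 0.476).

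Of 10 genes listed as induced by hypoxia, 4 had positive fold changes and 0 passed the test, with a median of -0.04. CA9 had a log2 fold change of 0.46 ± 0.38 and P4HA1 of -0.31 ± 0.28, the smallest p of that list. In replicate 6 this list was the highest of the 10 libraries in 2 of 10 genes, where 29.4% of all genes tested were, and the lowest in 3. Of 6 tested pericyte markers 1 was highest there and 4 were lowest. RGS5, another pericyte marker, read 145 CPM in replicate 6 and between 778 and 2260 CPM in the other 9 libraries. COX4I2, also known from pericytes, was highest in replicate 6, at 102 CPM. A part of hypoxia or of pericytes in the level of NDUFA4L2 was not tested.

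COX7A1 and COX6A2 are the forms known from heart and skeletal muscle. COX7A1 (chr6:45517229-45520713) read 12.4, 19.0, 26.9, 17.3 and 14.5 CPM in SWNT and 11.0, 11.1, 29.3, 12.4 and 13.6 CPM in SWNT-SHP1i. Replicate 3 was the highest library of each group, and the log2 fold change of -0.22 ± 0.32 became -0.64 without SWNT-SHP1i replicates 3 and 6. COX7A2, the general form, ranged from 25.8 to 42.3 CPM in SWNT and from 23.1 to 58.1 CPM in SWNT-SHP1i (log2 fold change -0.03 ± 0.26). The log2 ratio of COX7A1 to COX7A2 was -1.02 ± 0.45 (SD, n = 5) in SWNT and -1.22 ± 0.72 (SD, n = 5) in SWNT-SHP1i, a difference of -0.20 (exact permutation p = 0.611, adjusted p = 0.738). COX6A2 (chr3:17133476-17135104) ranged from 11.1 to 21.1 CPM in SWNT and from 9.72 to 26.2 CPM in SWNT-SHP1i, for a log2 fold change of -0.04 ± 0.32. The skeletal muscle myosin MYH4 was at 0 in every library and MYH1 was at most 0.182 CPM. Other skeletal muscle transcript was present: the summed level of the listed markers was 11.0 to 26.3 CPM in SWNT and 11.1 to 173 CPM in SWNT-SHP1i. It was highest in SWNT-SHP1i replicate 3, where COX7A1 was also highest. Replicates 1 and 6 had 149 and 110 CPM, with COX7A1 at 11.0 and 13.6 CPM. A link between the 2 was not tested.

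The 4 names left out for low counts were further isoforms of complex IV. COX7B2 had 0 counts in every library, COX6B2 at most 6 and COX8H, a muscle form, at most 8. COX6A1, the general partner of COX6A2, also had 0 counts in every library. All of its exons (chr14:40408631-40412870) are covered by an unnamed row of the other strand with 41 to 227 counts per library, so its 0 was not read as absence.

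**Figure D4:**
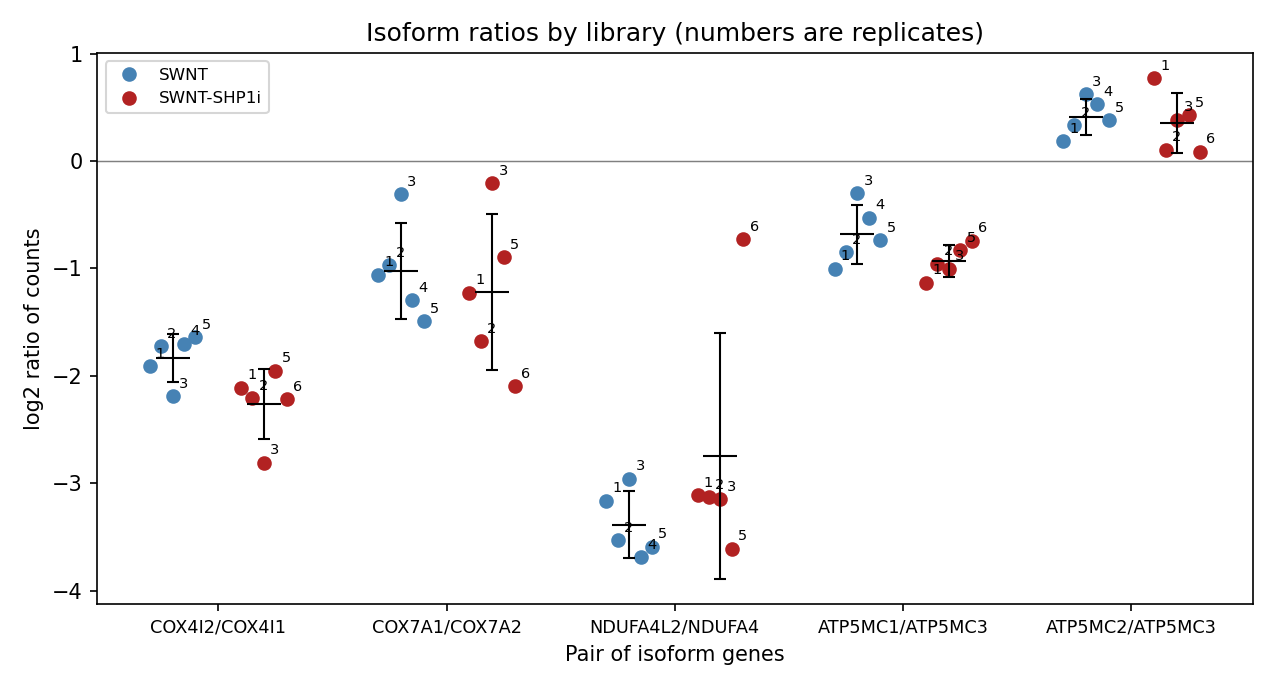
Log2 ratio of counts of 5 pairs of isoform genes (y axis) in each library, labelled by replicate number, with the mean and SD of each group of 5. COX4I2 over COX4I1 averages -1.83 in SWNT and -2.26 in SWNT-SHP1i, and NDUFA4L2 over NDUFA4 in SWNT-SHP1i replicate 6 stands alone at -0.73.

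Complex V, the ATP synthase, had 8 of 12 members with positive fold changes, 0 of them passing the test. ATP5F1A, the alpha subunit of the catalytic head (chr1:95733090-95750841), had the highest mean CPM of the named members, with 203, 218, 184, 239 and 230 CPM in SWNT and 217, 231, 211, 194 and 392 CPM in SWNT-SHP1i. Apart from SWNT-SHP1i replicate 6 all its libraries lay between 184 and 239 CPM, and the log2 fold change of 0.21 ± 0.22 was -0.0087 ± 0.13 without that library. ATP5F1D, the delta subunit of the stalk, had the highest level per exon length in the complex (136 RPKM) and a log2 fold change of 0.17 ± 0.26.

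The c-ring, which turns as protons pass, is encoded by 3 genes that give the same mature protein. ATP5MC3 (chr15:81083960-81094289) read 65.5, 72.3, 64.4, 70.0 and 61.1 CPM in SWNT and 56.0, 82.4, 96.4, 54.0 and 169 CPM in SWNT-SHP1i. Replicates 2, 3 and 6 were above the SWNT range and replicates 1 and 5 below it. ATP5MC3 had the smallest p of the complex, with a log2 fold change of 0.46 ± 0.29 (unadjusted p = 0.137), and ATP5MC2 followed with 0.34 ± 0.24 (unadjusted p = 0.187). Without replicate 6 these were 0.12 and 0.11. ATP5MC1 had a log2 fold change of 0.23 ± 0.34 (-0.20 without replicate 6).

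The use of the c-ring genes relative to each other was not told apart between the groups. The log2 ratio of ATP5MC1 to ATP5MC3 was -0.68 ± 0.28 (SD, n = 5) in SWNT and -0.93 ± 0.15 (SD, n = 5) in SWNT-SHP1i (difference -0.25, exact permutation p = 0.135, adjusted p = 0.337). The log2 ratio of ATP5MC2 to ATP5MC3 was 0.41 ± 0.17 (SD, n = 5) and 0.36 ± 0.28 (SD, n = 5) (difference -0.05, exact permutation p = 0.738, adjusted p = 0.738). ATP5IF1 (chr6:85307189-85309215), which blocks the synthase from running backwards, is an inhibitor and not a fixed subunit. It read 17.0, 23.4, 31.5, 28.3 and 22.8 CPM in SWNT and 14.3, 19.2, 23.1, 17.2 and 32.8 CPM in SWNT-SHP1i, and had a log2 fold change of -0.21 ± 0.26. Without replicate 6 it was -0.41 ± 0.21, with the other 4 SWNT-SHP1i libraries below the middle SWNT value.

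Without SWNT-SHP1i replicate 6, 3 members (4.55%) had an unadjusted p under 0.05, against 4.56% of all genes, and 0 passed (adjusted p of 0.951 or above). These were NDUFS4, NDUFB7 (-0.42 ± 0.15) and COX4I2 (-0.45 ± 0.17), all negative. Without replicates 3 and 6, 5 members (7.58%) had one, against 3.22% of all genes, and again 0 passed (adjusted p of 0.966 or above). They were NDUFS6 (-0.43), NDUFB7 (-0.41), COX7A1 (-0.64), COX4I2 (-0.51) and ATP5IF1 (-0.53). NDUFS6 and NDUFB7, accessory subunits of complex I, were named after their values were seen. NDUFB7 and COX4I2 are in both sets, but all libraries of the second fit are also in the first, so the sets are not independent. Exons of NDUFB7 overlap an unnamed row of the other strand over 35.0% of their length, and those of COX7A1 and ATP5IF1 overlap other genes over 24.9% and 16.2%.

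Further nuclear subunits, 11 in number, match no member name in the deposited table and were identified by position, after the data had been seen. Each row overlapped a RefSeq gene of the build Sscrofa11.1 over at least 0.5 of their joint span. The subunits were NDUFA12, NDUFB3, NDUFS7, NDUFA8 and NDUFV3 of complex I, SDHD of complex II, COX6B of complex IV, and ATP5L, ATP5B, ATP5H and ATP5J2 of complex V. The overlap was lowest for NDUFA8 (0.54), ATP5J2 (0.62) and NDUFV3 (0.77). The rows of NDUFA8, SDHD and ATP5L were also named as subunits by their gene identifiers. Of the 11, 9 had positive fold changes and 0 passed, their median was 0.13 (-0.09 without replicate 6), and replicate 6 was the highest library in 8. ATP5B, the beta subunit that forms the catalytic sites, ranged from 198 to 268 CPM in SWNT and from 206 to 382 CPM in SWNT-SHP1i (log2 fold change 0.17 ± 0.21). Of the 3 genes listed outside the name pattern 1 was positive: CYC1, the cytochrome of complex III, 0.37 ± 0.30, CYCS, cytochrome c, -0.18 ± 0.21, and NDUFAB1, the acyl carrier of complex I, -0.13 ± 0.15. CYC1 was also highest in replicate 6, at 192 CPM against 56.3 to 79.4 CPM elsewhere.

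The mitochondrially encoded subunits shared the nuclear pattern by library only in part. All 13 had positive fold changes, with a median of 0.95, but 0 passed the test. An unadjusted p under 0.05 in edgeR was found for 4, as for 4.64% of all genes tested. Without SWNT-SHP1i replicate 6 all 13 stayed positive (median 1.05), and the median was 0.15 without replicates 3 and 6. The highest of the 10 libraries was not SWNT-SHP1i replicate 6 for any of the 13, and it was the lowest for 2. Its median departure from the mean of the other 9 was 0.54 in log2 CPM, against 0.86 for the nuclear members. They took 1.72%, 1.58%, 2.95%, 1.40% and 1.15% of counts in SWNT and 2.25%, 1.82%, 8.53%, 1.70% and 2.54% in SWNT-SHP1i. For each count of a nuclear member there were 3.55 to 8.53 counts of these 13 genes in SWNT and 22.8 in SWNT-SHP1i replicate 3, the rest of that group having 4.92 to 7.53. The library with most mitochondrially encoded transcript was therefore a different one from that with most nuclear subunit transcript.

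**Figure D5:**
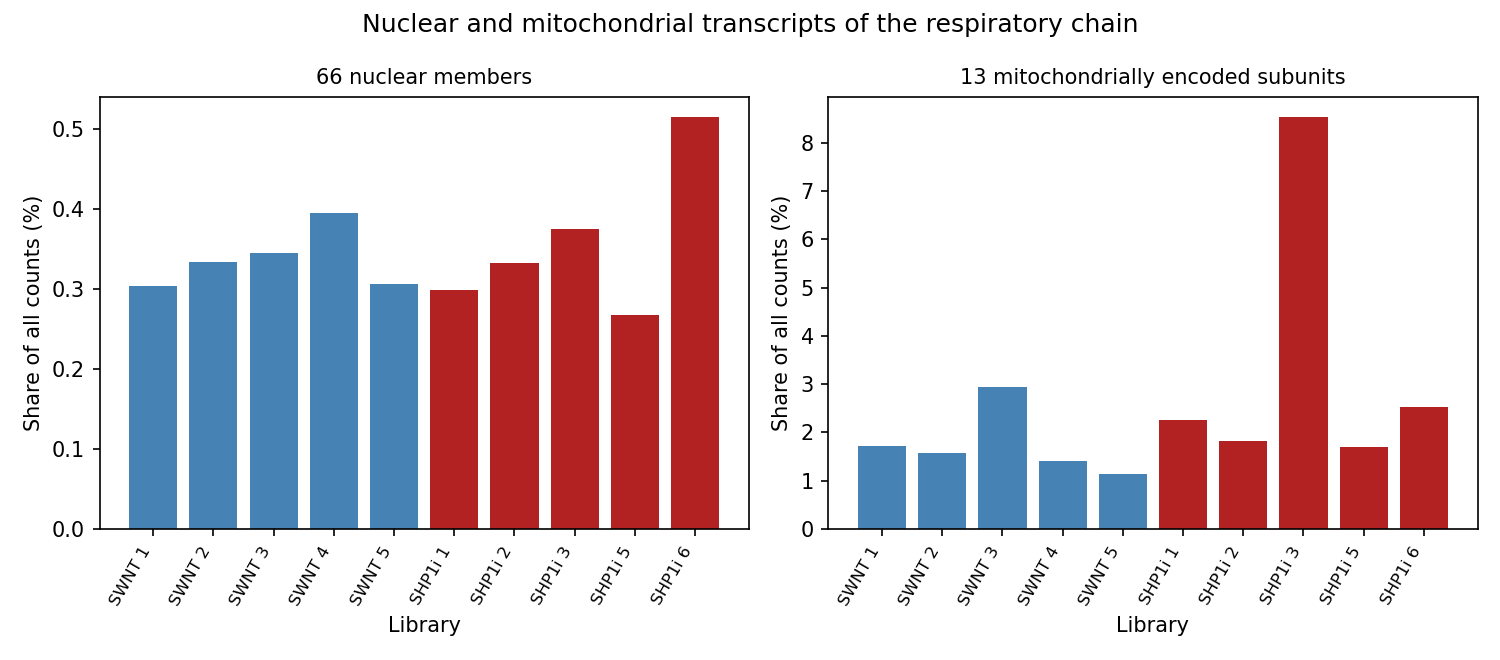
Share of all counts (y axes, percent, from 0) in the 66 nuclear members (left) and the 13 mitochondrially encoded subunits (right) in each library; blue bars are SWNT and red bars SWNT-SHP1i. SWNT-SHP1i replicate 6 is highest on the left at 0.515% and replicate 3 on the right at 8.53%.

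Genes that build and feed the complexes were described from lists, none of which had a called member. Of 44 tested assembly factors 25 had positive fold changes, with a median of 0.04 (-0.16 without SWNT-SHP1i replicate 6), and replicate 6 was the highest library in 20. Among them TMEM70, which assembles complex V, had -0.58 ± 0.26 (unadjusted p = 0.0444 in edgeR), followed by SDHAF4 at -0.71 ± 0.40. The 17 genes of pyruvate dehydrogenase and the tricarboxylic acid cycle had a median of -0.02, led by FH (0.17 ± 0.14) and SUCLA2 (-0.28 ± 0.28). Of 14 tested regulators of mitochondrial biogenesis 10 were positive, with a median of 0.04, led by NRF1 (-0.28 ± 0.19) and TWNK (-0.34 ± 0.30). PPARGC1A, the coactivator PGC-1 alpha, was at most 0.491 CPM in any library and was not tested. Among 8 nucleotide carriers and outer membrane channels, SLC25A4, the muscle ADP/ATP carrier, had -0.58 ± 0.20 (unadjusted p = 0.0142), and SLC25A6, another ADP/ATP carrier, had 0.62 ± 0.34. SLC25A4 read 76.2, 108, 103, 109 and 110 CPM in SWNT and 58.1, 80.8, 54.1, 91.1 and 54.4 CPM in SWNT-SHP1i.

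The library pattern of the nuclear subunits was also present in the mitochondrial ribosome and in glycolysis. The median of the assembly factors likewise turned negative without replicate 6, which was the highest library in 45.5% of them. Of 69 mitochondrial ribosome genes 54 had positive fold changes with a median of 0.16 (-0.03 without replicate 6), and replicate 6 was the highest library in 43. Those with the smallest p were MRPS34 (0.77 ± 0.38) and MRPL42 (0.67 ± 0.34). Of 17 genes of glycolysis and lactate 12 were positive with a median of 0.36 (-0.06 without replicate 6), and replicate 6 was the highest library in 13. SLC16A3, a lactate exporter, read 73.1 CPM in replicate 6 and at most 6.23 CPM elsewhere (log2 fold change 2.52 ± 0.93, 0.33 without replicate 6), and PFKM, the muscle phosphofructokinase, had -0.42 ± 0.20.

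The marker lists were those of smooth and skeletal muscle, adipocytes, macrophages, pericytes, endothelium, fibroblasts and red cells. Each kept the sign of its median fold change in the fits without SWNT-SHP1i replicate 6 and without both replicates 3 and 6. The median of the nuclear subunits turned negative in these fits. A link between the marker lists and the subunits was not tested. In bulk tissue fewer cells of a type and less RNA per cell cannot be told apart. All 10 smooth muscle markers had negative fold changes (median -0.62, 0 called), and replicate 6 was the lowest of the 10 libraries in 9 of them. All 10 were also negative without replicate 6 (median -0.47), and the median was -0.33 without replicates 3 and 6. All 12 macrophage markers had positive fold changes (median 1.53, 0 called), and their summed level was 401 to 1208 CPM in SWNT and 415 to 2330 CPM in SWNT-SHP1i. Of the 12, 10 had an unadjusted p under 0.05 in edgeR, as 4.64% of all genes tested did. All 12 were also positive without replicate 6 (median 0.88), and the median was 0.78 without replicates 3 and 6. By library the summed macrophage level was 1208, 401, 439, 657 and 530 CPM in SWNT and 1353, 1467, 1459, 415 and 2330 CPM in SWNT-SHP1i. In the same order the mean centred log2 CPM of the 66 members was -0.21, 0.02, 0.11, 0.11 and -0.18 in SWNT. In SWNT-SHP1i it was -0.24, -0.07, 0.14, -0.39 and 0.71. Of 14 skeletal muscle markers 5 were tested, all 5 positive, with a summed level of 11.0 to 26.3 CPM in SWNT and 11.1 to 173 CPM in SWNT-SHP1i. Its most abundant gene was CKM, at 143, 166 and 90.8 CPM in SWNT-SHP1i replicates 1, 3 and 6.

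Other marker lists had no called member either. Of 9 adipocyte markers 3 were positive (summed level 122 to 617 CPM in SWNT, 176 to 516 CPM in SWNT-SHP1i), and of 6 tested pericyte markers 2 were (2857 to 4284 CPM and 1523 to 4059 CPM), HIGD1B being at most 0.268 CPM. Of 7 endothelial markers 4 were positive (456 to 1367 CPM and 533 to 1132 CPM) and all 7 fibroblast markers were (39600 to 81843 CPM and 67716 to 102683 CPM), with a median of 0.32, 0.51 without replicate 6 and 0.55 without replicates 3 and 6. Replicate 6 was the highest library in 1 of 7 endothelial, 1 of 7 fibroblast and 2 of 9 adipocyte markers. All 3 tested red cell markers were negative (47.9 to 1295 CPM and 25.8 to 236 CPM). The part of cell composition in the levels of the nuclear subunits was not tested.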

How the data were processed

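Whole-number read counts per gene from 10 carotid artery libraries, each from an animal with its own number, were deposited by the authors without normalization. Per the submitters' processing notes, Trim Galore, STAR, DESeq2 and the build Sscrofa11.1 were used. Their versions, the counting program and its strand setting were not given in the sources used here. Coordinates, strand and exon length are in the same table, per the file headers. Reads of overlapping genes cannot be assigned with certainty, and this touches 10 members in over 10% of their exon length. Symbols came from the table. Where it had none, 223 of 18162 rows were named from a table of gene identifiers.

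Genes were filtered with filterByExpr (minimum count 10; at least 99.894% of counts kept), scaled by TMM and tested with edgeR 4.0.16 (robust quasi-likelihood fit, R 4.3.3), with Benjamini-Hochberg adjustment over all 15930 genes and a threshold of 0.05. The SE is the absolute log2 fold change over the square root of F, and the 95% interval uses it with a normal quantile. That interval is somewhat narrower than one matched to the F test that gave the p-values. CPM use TMM-scaled library sizes, log2 CPM a prior count of 2, and RPKM are CPM per kilobase of exon. Fitted fold changes compare mean counts, so a single high library pulls them. Isoform ratios (offset 0.5 counts) were tested over all 252 assignments of libraries. The scripts were tested on simulated data. No pair of libraries agreed within sampling noise (lowest median chi-square 5.4, where noise gives 0.455).

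The members and lists were chosen with earlier results of these data known. Named members are core subunits, isoform pairs, ATP5IF1 and COX7A2L, the 3 smallest p of each complex, and the 3 highest and 3 lowest in fold change and RPKM; list genes are the 2 with the smallest p. 1 member is counted in totals but its values are not reported here. Alternatives were RLE and upper-quartile scaling, 2 other filters, DESeq2 1.42.0, limma-voom 3.58.1 with quality weights, animal-number range as a term, mitochondrial and globin genes left out, a threshold of 0.1, an offset of 5 counts, and libraries left out.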

Additional observations from a re-analysis of the deposited data

Results flagged for a closer look

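Single libraries that lay far from the other 4 of their group gave 14 of the results below, out of 94 groups of 5 checked. Chance gives about 1 in 20 for a single group not chosen by its values. The groups here share the same 10 libraries, and some members were named for their values, so that rate cannot be set against the 14. Of the 14, 13 were in SWNT-SHP1i and 10 were its replicate 6.

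Replicate 6 of SWNT-SHP1i was far above its group for ATP5F1A (392 CPM), COX4I2 (102 CPM), NDUFC2 (20.2 CPM), SDHA (193 CPM), SDHB (95.2 CPM) and SDHC (63.8 CPM), for the mean centred log2 CPM of complex II (0.576) and for the log2 ratio of NDUFA4L2 to NDUFA4 (-0.73). It was far below its group for NDUFS1 (26.0 CPM) and UQCRC2 (37.1 CPM). NDUFS1 and UQCRC2, core subunits of complexes I and III, were thus low in the library where most nuclear subunits were high.

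Replicate 3 of SWNT-SHP1i was far above its group for COX7A1 (29.3 CPM), for the share of counts in the 13 mitochondrially encoded subunits (8.53%) and for the counts of these per count of a nuclear member (22.8). In SWNT, replicate 5 was far below its group for COX5A, at 28.7 CPM.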

How the results depend on the processing

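Of 15930 genes, 0 passed in edgeR, with 739 at an unadjusted p under 0.05. DESeq2 called 2 genes, limma-voom 0, and 0 were called under the other settings and without any single library. Members called were 0 in every setting and at a threshold of 0.1, so no call was gained or lost. The members' median log2 fold change moved most with the libraries: from 0.10 to -0.097 without SWNT-SHP1i replicate 6 (the lowest value when leaving out each library in turn, and 0.18 without replicate 5 the highest), -0.18 without replicates 3 and 6 and -0.080 in limma-voom. Members with an unadjusted p under 0.05 numbered 6 of 66 in limma-voom, where 1385 of 15930 genes tested had one. They numbered 5 without replicates 3 and 6 (534 of 16576 genes). Without replicate 5 there were 3 (1583 of 16173 genes), and without replicate 6 also 3 (738 of 16192 genes).

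Signs of single members, none of which passed, also changed. The values below are log2 fold changes, or differences of log2 ratios where 2 genes are named. Without replicates 3 and 6 they were ATP5F1D -0.30, ATP5MC1 -0.35, ATP5MC2 -0.049, ATP5MC3 -0.049, COX4I1 -0.28, COX5B -0.26, COX7A2L -0.080, COX7B -0.096, COX8A -0.29, NDUFA11 -0.11, NDUFA4L2 -0.090, NDUFA5 0.063, NDUFB2 -0.32, NDUFC2 -0.052, NDUFS1 0.054, NDUFV1 -0.31, SDHA -0.15, SDHB -0.18, UQCRC1 -0.17, UQCRFS1 -0.043, UQCRQ -0.068 and ATP5MC2/ATP5MC3 ratio 0.027. In limma-voom they were ATP5F1D -0.21, ATP5MC1 -0.18, COX5B -0.13, COX8A -0.054, NDUFB2 -0.23, NDUFC2 -0.043, NDUFV1 -0.19, SDHA -0.13, SDHB -0.12, UQCRC1 -0.081 and UQCRFS1 -0.075. RLE scaling gave COX4I2 0.042, COX7A2 0.013 and NDUFA5 0.019, and DESeq2 gave COX4I2 0.041, COX7A2 0.012 and NDUFA5 0.019. A filter of 1 CPM in 5 libraries gave COX4I2 0.019 and NDUFA5 0.0091. Without a filter on low counts COX7A2L was -0.0036, and with animal-number range in the model COX4I2 was 0.0092. Leaving out each library in turn, those that changed sign only without SWNT-SHP1i replicate 6 had ranges of ATP5F1A -0.0087 to 0.29, ATP5F1D -0.10 to 0.27, ATP5MC1 -0.20 to 0.38, COX5B -0.17 to 0.30, COX8A -0.086 to 0.52, NDUFB2 -0.38 to 0.25, NDUFC2 -0.044 to 0.19, NDUFS1 -0.22 to 0.032, NDUFV1 -0.20 to 0.36, SDHA -0.13 to 0.16, SDHB -0.16 to 0.13, UQCRC1 -0.039 to 0.44 and COX7A1/COX7A2 ratio -0.45 to 0.021. Those that changed sign without other libraries too, or instead, had ranges of COX7A2L -0.055 to 0.068, COX4I2 -0.45 to 0.13, NDUFA5 -0.069 to 0.10, COX6A2 -0.39 to 0.13, COX7A2 -0.28 to 0.092, SDHC -0.14 to 0.017, UQCRFS1 -0.0011 to 0.090 and ATP5MC2/ATP5MC3 ratio -0.16 to 0.014. The cause was not tested beyond leaving out libraries.

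No paired analysis was possible because replicate numbers were given in accession order and pair no animals. With 27593564 or more counts per library, the spread between animals and not depth sets the precision for these members.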
